A study of Homo sapiens with 4 samples.

Results

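The transcripts of 10 chemokine genes were followed after enfortumab vedotin (EV) in cells labelled HT1376, a bladder cancer line. The genes were CXCL1, CXCL2, CXCL3, CXCL5, CXCL6, CXCL8, CXCL10, CCL2, CCL5 and CCL20. They were taken by name from the 61860 genes of the deposited count table. HT1376 is an established human cell line, so by label each group holds cultured tumour cells of 1 line, with no leukocytes or stroma named. The EV samples (n = 2) received 1 nM of the drug for 48 h, and the WFI samples (n = 2) received a control that the labels call only WFI, for the same time. All 4 were grown in serum-containing MEM. EV is an antibody to the surface protein nectin-4 that carries a microtubule poison, and the labels name no knockout, transgene or second agent. The labels do not say whether replicates were separate cultures. The p-values set the group difference against the scatter between replicates among these 4 libraries. Some or all of that scatter may be technical, so the p-values may not extend to new cultures.

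Chemokines are small secreted proteins that attract leukocytes through G protein-coupled receptors. CXCL1, CXCL2, CXCL3, CXCL5, CXCL6 and CXCL8 carry a glutamate-leucine-arginine motif before their CXC cysteines, and they call neutrophils through CXCR2 and, for CXCL6 and CXCL8, also CXCR1. CXCL10 lacks that motif, is induced by interferons and draws T cells through CXCR3. CCL2 draws monocytes through CCR2, CCL5 draws T cells and monocytes, and CCL20 is the ligand of CCR6. Epithelial and tumour cells make many of them when interleukin 1, TNF or microbial products activate NF-kB, and interferons act on CXCL10. Many of these mRNAs are short-lived because AU-rich elements in their 3' ends recruit decay factors.

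The 6 glutamate-leucine-arginine CXC genes lie in 1 cluster on chromosome 4 of hg38, from the CXCL8 start at 73740506 to the CXCL2 end at 74099293. CXCL10 lies farther along that chromosome (76021117 to 76023497, minus strand). CCL2 (34255218 to 34257203, plus strand) and CCL5 (35871491 to 35880793, minus strand) are on chromosome 17, and CCL20 (227805739 to 227817564, plus strand) is on chromosome 2. RefSeq promoters (build GRCh38.p14) were matched by symbol for 8 of the 10. The 130 bases before the RefSeq start are shown for the 7 genes that were lower in EV, because the same stretch of letters recurs in most of them, and 250 bases for CXCL10, which was not. The RefSeq starts lie inside the GENCODE 29 gene spans for all of these but CXCL1 and CXCL10, where they coincide with the gene start. Capitals mark the letters GGNNNTTCC on either strand, a form of the NF-kB motif.
CXCL8 (chr4:73740439-73740568, plus strand): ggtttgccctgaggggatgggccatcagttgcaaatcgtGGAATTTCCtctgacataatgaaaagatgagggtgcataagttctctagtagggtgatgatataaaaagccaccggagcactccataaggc
CXCL1 (chr4:73869263-73869392, plus strand): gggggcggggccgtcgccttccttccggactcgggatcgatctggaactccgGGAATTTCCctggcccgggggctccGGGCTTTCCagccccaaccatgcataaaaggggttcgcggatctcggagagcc
CXCL2 (chr4:74099196-74099325, minus strand): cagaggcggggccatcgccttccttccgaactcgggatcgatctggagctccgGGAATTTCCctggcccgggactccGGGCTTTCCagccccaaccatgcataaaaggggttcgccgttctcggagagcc
CXCL3 (chr4:74038690-74038819, minus strand): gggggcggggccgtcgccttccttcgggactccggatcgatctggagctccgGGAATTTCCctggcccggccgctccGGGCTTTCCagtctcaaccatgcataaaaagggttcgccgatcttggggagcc
CXCL5 (chr4:73998678-73998807, minus strand): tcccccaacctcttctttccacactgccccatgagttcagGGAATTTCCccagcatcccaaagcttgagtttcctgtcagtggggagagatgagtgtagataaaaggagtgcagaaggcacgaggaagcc
CXCL6 (chr4:73836548-73836677, plus strand): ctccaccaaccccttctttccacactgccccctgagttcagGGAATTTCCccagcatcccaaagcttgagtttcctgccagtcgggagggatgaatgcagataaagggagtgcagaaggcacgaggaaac
CCL20 (chr2:227813712-227813841, plus strand): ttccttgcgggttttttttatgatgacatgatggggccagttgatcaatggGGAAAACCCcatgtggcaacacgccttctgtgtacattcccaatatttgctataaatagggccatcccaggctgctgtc
CXCL10 (chr4:76023498-76023747, minus strand): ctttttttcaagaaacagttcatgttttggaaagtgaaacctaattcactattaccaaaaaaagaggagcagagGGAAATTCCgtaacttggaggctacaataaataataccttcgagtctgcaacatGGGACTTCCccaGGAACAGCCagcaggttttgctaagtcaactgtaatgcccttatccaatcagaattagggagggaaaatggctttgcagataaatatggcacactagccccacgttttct

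The letters GGNNNTTCC stood within 250 bases before the start in all 8 promoters, against 17.1% of the 35116 promoters in the RefSeq table. The exact run GGAATTTCC, on either strand, was held by 7 of the 8 (not by CCL20) and by 0.413% of all promoters. Counted from the start, it ran from -78 to -70 in CXCL1 and CXCL3 and from -77 to -69 in CXCL2, and a further match, GGGCTTTCC, ran from -53 to -45 in each of these 3. It ran from -90 to -82 in CXCL5, from -89 to -81 in CXCL6 and from -91 to -83 in CXCL8. In CXCL10 it stood on the minus strand, from -176 to -168. These 6 promoters are not independent, since they belong to genes that arose by duplication: over 250 bases CXCL1 and CXCL3 were 81.4% identical and CXCL5 and CXCL6 85.3%, whereas CXCL1 and CXCL8 were 43.9% identical. The AP-1 letters TGANTCA, which overlap no GGNNNTTCC match here, were found among the 8 in CXCL8 alone, from -137 to -131, outside the stretch shown (6.57% of all promoters). The interferon-stimulated response element, searched as GAAA, 2 bases of any kind and GAAA on both strands, was found among the 8 in CXCL10 alone, from -221 to -212 (3.02% of all promoters). The motifs were chosen with these sequences in view, and a match is a description of letters, not of binding.

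Library totals ran from 19368791 to 20727175 counts in EV and from 19447577 to 19669037 in WFI, and 17465 genes passed the count filter. As a check on the cell type, KRT7, KRT8 and KRT18, keratins of simple epithelia, had means of 751, 1896 and 725 CPM in EV and 436, 733 and 387 CPM in WFI (CPM, counts scaled to library size with TMM factors). The 15 urothelial and epithelial markers listed, these keratins included, were uneven, and many were at or near 0 in WFI. EPCAM had 26 and 15 counts in EV and 3 and 6 in WFI. TP63 had 30 and 27 counts in EV and 0 in both WFI samples, and UPK1A had 17 and 21 in EV and 1 and 2 in WFI. KRT19, UPK1B, UPK2 and UPK3A had 13 or fewer counts in every sample. PPARG, a regulator of urothelial differentiation, had 740 and 840 counts in EV and 731 and 774 in WFI. GATA3 had 183 and 195 counts in EV and 16 and 19 in WFI, and KRT5 had 97 and 134 counts in EV and 0 in both WFI samples. KRT20 had 0 counts in all 4 samples, and CDH1, the E-cadherin gene, had 9 and 7 counts in EV, against 0 and 1 in WFI. The outcome of the check was mixed: in WFI KRT7, KRT8 and KRT18 were high, while CDH1, EPCAM, KRT5 and TP63 were at or near 0. These markers go only in part with an epithelial line, and the labelled identity was not tested. The 12 leukocyte markers listed summed to 43.8 to 43.9 CPM in EV and 1.65 to 2.53 CPM in WFI, mainly through ITGAM, CD79A and CD14. ITGAM had 464 and 513 counts in EV and 3 and 2 in WFI, so that it, like CD79A and KRT5, passed the count filter only through EV. The defining leukocyte gene PTPRC had 4 and 9 counts in EV and 1 and 3 in WFI. Fibroblast markers (7 listed) summed to 10.8 to 13.7 CPM in EV and 10.3 to 11.5 CPM in WFI, and endothelial markers (6 listed) to 20.3 to 22.3 CPM in EV and 10.9 to 13.7 CPM in WFI. The part of these markers in the chemokine values was not tested. A lower transcript level in such bulk RNA cannot be told apart from fewer cells that make the transcript.

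In EV-treated cells 7 of the 10 chemokine transcripts were lower than in WFI-treated cells: CXCL8, CXCL1, CXCL2, CXCL3, CXCL5, CXCL6 and CCL20. None was called higher, CXCL10 did not pass the test, and CCL2 and CCL5 were near or at 0 counts in every sample. The 10 genes together took 0.230% and 0.227% of all counts in EV, against 0.4997% and 0.508% in WFI. Such shares, and all levels and fold changes here, are relative to the rest of each library. The counts do not give transcript amounts per cell. The contrast was wide across the transcriptome, as 31.5% of all tested genes were called lower in EV and 34.5% higher, 66% in either direction, by the same rule (edgeR's quasi-likelihood test, Benjamini-Hochberg adjusted p below 0.05), and 13.3% were called lower with a log2 fold change of -1 or lower. Of the 10 members 8 passed the count filter, and their median log2 fold change was -0.76, beside 0.02 for all tested genes.

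CXCL8, the interleukin-8 gene, had the highest counts of the 10 in every sample, with 21797 and 22421 counts in EV, against 57403 and 59358 in WFI. That is 1198 and 1158 CPM in EV and 2779 and 2837 CPM in WFI, with the pairs of replicates far closer to each other than to the other group. Its log2 fold change was -1.25 (SE 0.03, edgeR adjusted p = 1.5e-11), which is 41.9% of the WFI level. CXCL1, a neutrophil attractant first described as a melanoma growth factor, had 949 and 973 CPM in EV and 1408 and 1434 CPM in WFI. Its groups did not overlap either, but its log2 fold change was smaller, at -0.56 (SE 0.03, edgeR adjusted p = 1.2e-08), or 67.7% of the WFI level.

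CXCL2 and CXCL3, close relatives of CXCL1 that also signal through CXCR2, were lower as well. CXCL2 had 99.6 and 105 CPM in EV and 190 and 182 CPM in WFI (log2 fold change -0.86, SE 0.05, edgeR adjusted p = 4.84e-08). CXCL3 had 106 and 101 CPM in EV and 151 and 148 CPM in WFI (log2 fold change -0.53, SE 0.05, edgeR adjusted p = 2.66e-06). For both, every EV sample lay below every WFI sample. The coding sequences of CXCL1, CXCL2 and CXCL3 are 90.8% to 94.4% identical, so reads may have been split among them. Of the 50-base windows of the CXCL1 transcript 5.73% occur in CXCL2 and 0.573% in CXCL3, and of the 100-base windows 0% occur in either. Neither the read length nor the handling of shared reads was stated in the sources used here.

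CXCL5 and CXCL6, neutrophil attractants made mainly by epithelial and stromal cells, were also lower. CXCL5 had 60.0 and 60.5 CPM in EV and 96.5 and 93.2 CPM in WFI (log2 fold change -0.65, SE 0.06, edgeR adjusted p = 1.98e-06). CXCL6 had 32.9 and 28.7 CPM in EV and 65.3 and 64.2 CPM in WFI (log2 fold change -1.07, SE 0.08, edgeR adjusted p = 7.57e-07). The CXCL6 level in EV was thus 47.5% of the WFI level and that of CXCL5 63.5%, although their coding sequences are 87.5% identical and share no 50-base window. The pseudogene PPBPP1, inside the span of CXCL6 on the same strand, had 0 counts in all 4 samples.

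CCL20, which attracts CCR6-bearing lymphocytes and dendritic cells, had the largest fold change of the 8 tested genes. It had 62 and 42 counts in EV and 300 and 290 in WFI, or 3.41 and 2.17 CPM in EV and 14.5 and 13.9 CPM in WFI. The EV samples were both low but differed from each other by more than the WFI samples did. The log2 fold change was -2.35 (SE 0.22, edgeR adjusted p = 3.02e-06), a level 5.10-fold lower in EV.

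**Figure D1:**
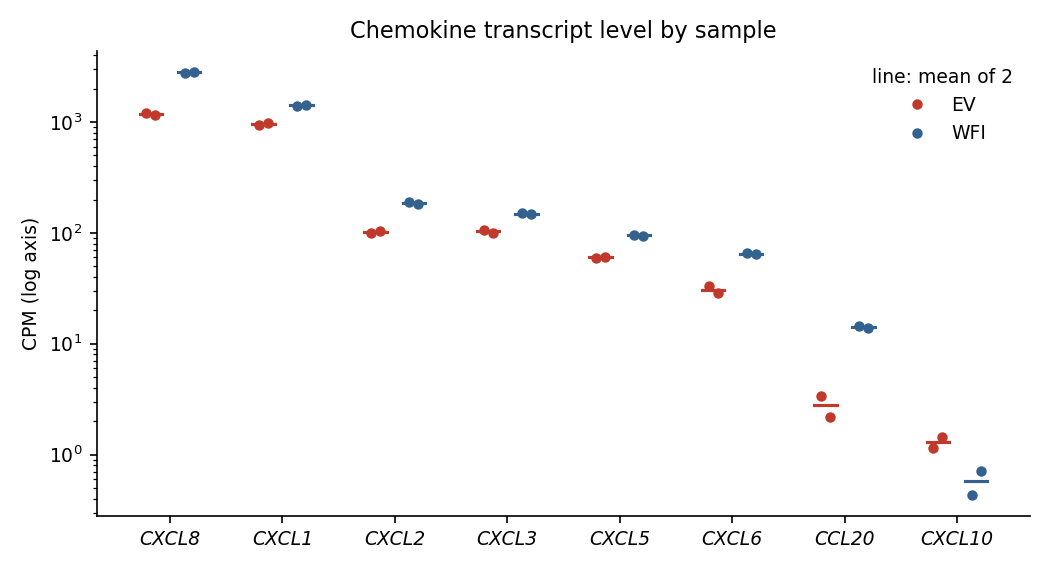
Level of the 8 tested chemokines in each sample, in CPM on a log axis, with 1 point per sample and a line at the mean of 2. For CXCL8, CXCL1, CXCL2, CXCL3, CXCL5, CXCL6 and CCL20 both EV points lie below both WFI points, while for CXCL10 they lie above. CCL2 and CCL5 are not drawn because they had 0 counts in some or all samples.

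CXCL10, the interferon-inducible T cell attractant, did not pass the test. It had 21 and 28 counts in EV and 9 and 15 in WFI (1.15 and 1.45 CPM in EV, against 0.436 and 0.717 CPM in WFI). The groups did not overlap, but the log2 fold change of 1.17 (95% interval 0.0054 to 2.33) had an edgeR adjusted p of 0.0715 and an unadjusted p of 0.0491. ART3, which overlaps CXCL10 on the opposite strand, had 7 and 4 counts in EV and 1 and 3 in WFI, and the strand setting of the counting is unknown, so reads of the 2 genes may not have been told apart. CCL2, the monocyte attractant, had 3 and 1 counts in EV and 0 in both WFI samples, within the floor of 3 counts per library (0.143 to 0.165 CPM), and no fold is given. CCL5 had 0 counts in all 4 samples, which allows up to 0.155 to 0.165 CPM in EV and 0.143 to 0.145 CPM in WFI, counting error only.

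**Figure D2:**
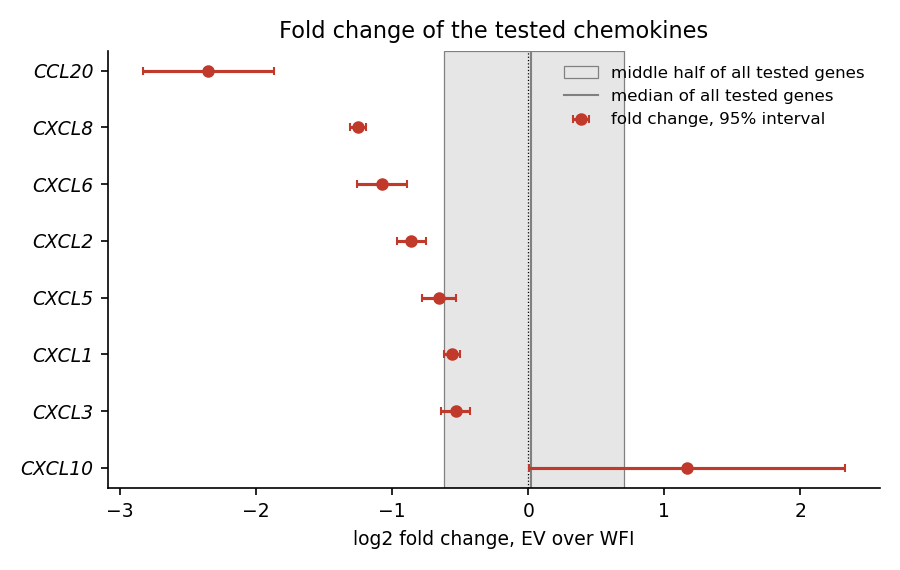
Log2 fold change of the 8 tested chemokines, EV over WFI, with 95% intervals from the edgeR fit. The grey band spans the lower to the upper quartile of all tested genes (-0.62 to 0.70) and the grey line is their median. CCL20, CXCL8, CXCL6, CXCL2 and CXCL5 lie below the band, CXCL1 and CXCL3 lie inside its lower edge, and the CXCL10 interval is wide.

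Placed among all tested genes, 2.79% had a fold change at or below that of CCL20, 10.7% at or below that of CXCL8 and 13.7% at or below that of CXCL6. For CXCL2 the share was 18.1%, for CXCL5 23.9%, for CXCL1 26.8% and for CXCL3 27.7%. Fold changes across the transcriptome also went with the length of a gene's merged exons in GENCODE 29, and the chemokine genes are short. With all tested genes in 10 groups by that length, the 8 chemokines fall in the 3 shortest groups (up to 2837 bases), in which the median log2 fold change was 0.45, 0.39 and 0.29 and in which 14.7%, 15.4% and 18.3% of genes were called lower. With fold changes corrected for merged exon length and GC content, all 7 genes stayed called lower, with log2 fold changes of -0.88 for CXCL8, -0.87 for CXCL1, -1.15 for CXCL2, -0.87 for CXCL3, -0.45 for CXCL5, -1.08 for CXCL6 and -2.17 for CCL20.

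The make-up of the chemokine counts differed between the groups as well. CXCL8 made up 48.9% (exact 95% interval 48.4 to 49.4) and 47.7% (47.2 to 48.1) of the counts of the 10 genes in EV, against 59.1% (58.8 to 59.4) and 59.4% (59.1 to 59.8) in WFI. CXCL1 made up 38.7% and 40.1% in EV, against 29.9% and 30.0% in WFI. These intervals cover counting error only, and the shares do not depend on how libraries were scaled. The ratio of CXCL1 to CXCL8 counts was 0.792 and 0.841 in EV and 0.507 and 0.505 in WFI, with no overlap; with 2 samples a group an exact two-sided permutation test cannot give less than p = 0.333, which is what it gave. The ratio of CXCL1 to CXCL3 counts overlapped between the groups, at 8.98 and 9.65 in EV and 9.31 and 9.71 in WFI. Transcripts of CXCL8 hold 33.4% GC and those of CXCL1 45.6%, and after the correction for length and GC the log2 fold changes of CXCL8 and CXCL1 were -0.88 and -0.87, so the difference between the 2 genes was seen without that correction and not with it.

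**Figure D3:**
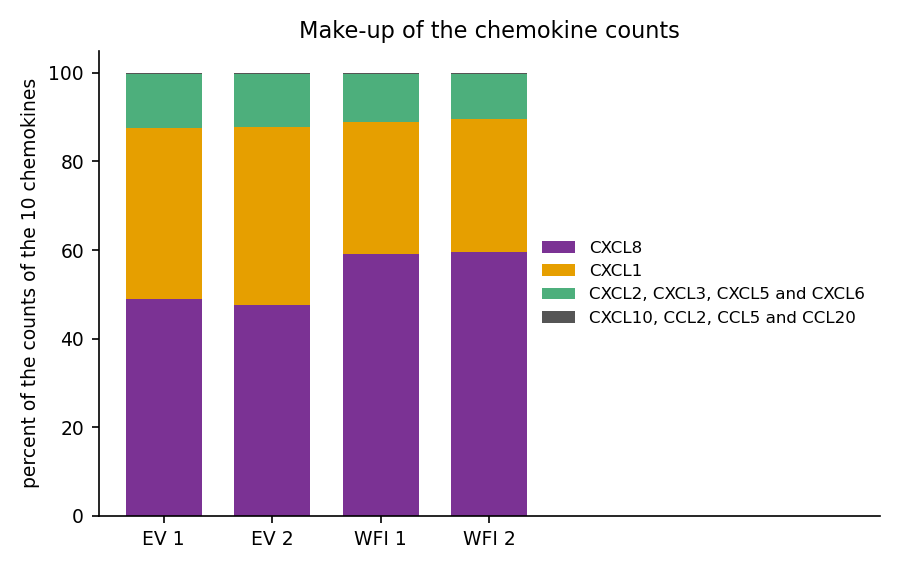
Make-up of the summed counts of the 10 chemokines in each sample, in percent, with the EV samples left of the WFI samples. The CXCL8 part is smaller in both EV samples (48.9% and 47.7%) than in both WFI samples (59.1% and 59.4%), and the CXCL1 part is larger. The part of CXCL10, CCL2, CCL5 and CCL20 is too small to see.

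Per kilobase of merged exons, which allows genes to be compared, the order of levels was not the same in the groups. This rests on the unequal fold changes of CXCL1 and CXCL8, which were not seen after the length and GC correction (-0.87 and -0.88); the levels below are not corrected. In EV CXCL1 came first at 742 ± 13.1 CPM per kb and CXCL8 next at 518 ± 12.5 (SD, n = 2). In WFI CXCL8 came first at 1235 ± 18.0 CPM per kb and CXCL1 next at 1097 ± 14.1. CXCL2 (68.1 ± 2.37 in EV, 124 ± 3.71 in WFI), CXCL3 (46.5 ± 1.58 in EV, 67.4 ± 1.13 in WFI), CXCL5 (23.7 ± 0.156 in EV, 37.4 ± 0.929 in WFI) and CXCL6 (14.1 ± 1.36 in EV, 29.7 ± 0.347 in WFI) followed in that order in both groups, each apart from its neighbour by more than the SD. CCL20 (1.75 ± 0.550 CPM per kb in EV, 8.90 ± 0.294 in WFI) and CXCL10 (1.11 ± 0.175 in EV, 0.490 ± 0.169 in WFI) came last among the tested genes, close together in EV. With the length of the longest transcript in place of merged exons, CXCL1 was again first in EV (876 against 691 CPM per kb for CXCL8) and CXCL8 in WFI (1647 against 1295 for CXCL1).

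The fold changes were not even along the chromosome 4 cluster, but their order depended on the length and GC correction. Without it, as given here, CXCL8 (-1.25) and CXCL6 (-1.07) were lowest. With it CXCL2 (-1.15) and CXCL6 (-1.08) were lowest. CXCL8 (-0.88), CXCL1 (-0.87) and CXCL3 (-0.87) were then alike, and CXCL5 was at -0.45. In the window from AFP to EREG, which holds the cluster, 10 genes were tested, and the 6 chemokines among them were all lower in EV. Of the other 4 tested genes 2 were called lower, beside 31.5% of all tested genes. MTHFD2L, a mitochondrial folate enzyme gene that begins 373.7 kb from the CXCL8 start, had 310 and 280 counts in EV and 477 and 452 in WFI (log2 fold change -0.51, edgeR adjusted p = 0.00381). EPGN, an EGF receptor ligand gene, had 63 and 62 counts in EV and 136 and 115 in WFI (-0.86, edgeR adjusted p = 0.00888). EREG, another EGF receptor ligand gene 624.6 kb from the CXCL8 start, was slightly higher, with 4948 and 5898 counts in EV and 4866 and 5006 in WFI (0.28, edgeR adjusted p = 0.000552). RASSF6, before CXCL8, did not pass the test (-0.38, edgeR adjusted p = 0.583). The platelet chemokine genes PF4 and PF4V1 inside the cluster and the pseudogene CXCL1P1 had 0 counts in all samples, and PPBP had 1 count in 1 WFI sample. UMLILO, a long noncoding RNA gene before CXCL8 that is known to act on this cluster, had 0 counts in both EV samples and 4 and 2 in WFI, too few to test.

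**Figure D4:**
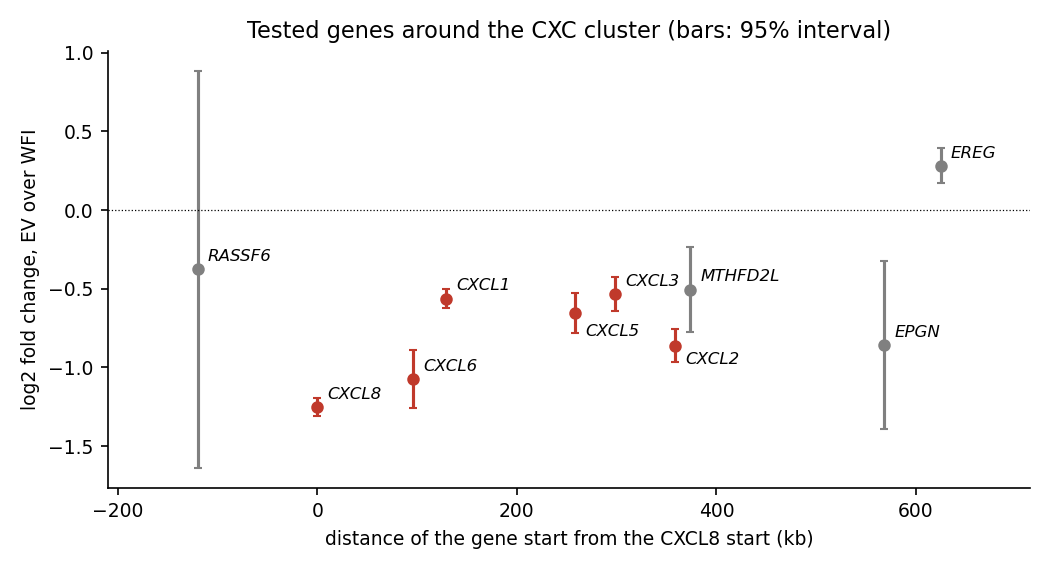
Log2 fold change, EV over WFI, of the tested genes in and around the chromosome 4 chemokine cluster against the distance of each gene's start from that of CXCL8, in kb, with 95% intervals. Chemokines are red and other genes grey. CXCL8 (-1.25) and CXCL6 (-1.07) have the lowest values, and EREG is the only gene drawn above 0. The values are without the length and GC correction, with which CXCL2 (-1.15) was the lowest of the chemokines drawn.

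The genes most like CXCL8 in pattern were sought among 9600 other genes with a mean of at least 10 CPM, by the Euclidean distance of their 4 centred log2 CPM values. The nearest were KIAA1549, TXNIP, LZTR1, CFLAR and KAT6B, at distances of 0.0248 to 0.0358, with log2 fold changes of -1.24 to -1.26. Among the chemokines above that level the nearest was CXCL6, at a distance of 0.211 and rank 360, and CXCL3 ranked 2274. With 4 samples in 2 groups, such a distance mainly reflects the fold change.

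A feature shared by the 7 lower transcripts was the density of AUUUA pentamers in the 3' untranslated region, counted in the longest coding transcript of each gene in GENCODE 29. They held 5.36 per kb (CXCL6) to 13.9 per kb (CXCL2), at the 92.2nd to the 99.6th percentile of 17987 protein coding genes, whose median was 1.61 per kb. CXCL8 held 9 pentamers in 1252 bases, CXCL2 held 10 in 721 bases and CCL20 held 3 in 481 bases. CXCL10 held 1 in 813 bases (1.23 per kb), CCL2 held 1 in 376 bases and CCL5 held 0 in 886 bases. All of the 7 but CCL20 belong to the CXC cluster of genes that arose by duplication, so they are not independent cases. CCL2 and CCL5 did not pass the count filter, so CXCL10 is the only tested member to set against the 7. Whether genes called lower across the table hold more pentamers than genes called higher was not tested. The pentamer count describes the letters of the transcripts and was not related to mRNA stability here.

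Of 36 other chemokine ligand genes, 4 passed the filter, and all were at low levels. CXCL11, an interferon-inducible CXCR3 ligand like CXCL10, had 28 and 80 counts in EV and 6 and 9 in WFI (log2 fold change 2.96, SE 0.59, edgeR adjusted p = 0.00107). Its EV samples stood far apart, and the log2 fold change was 3.49 without EV replicate 1 and 2.06 without EV replicate 2. CXCL14, a chemokine of epithelia, had 20 and 15 counts in EV and 0 in both WFI samples, at least 6.49-fold higher against a floor of 3 counts per library. CCL17, a CCR4 ligand, had 13 and 12 counts in EV and 1 in each WFI sample, a ratio of 13.8 (95% interval 3.45 to 120.5, counting error only). Its call was lost without WFI replicate 1 (edgeR adjusted p = 0.140) or WFI replicate 2 (0.144), while the log2 fold change stayed at 3.61 and 3.59, beside 3.63 with all samples. CXCL16, a membrane-bound ligand of CXCR6, had 58 and 70 counts in EV and 48 and 52 in WFI (0.50, edgeR adjusted p = 0.159). CXCL11, CXCL14 and CCL17 stood near 0 in WFI, so genes like them could enter the test only by being higher in EV, and 16 of the 36 had no count in any sample. Across the whole table more genes had a count in EV (29456 and 28770) than in WFI (26258 and 26587). The part of this in the ligand values was not tested.

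The main receptors named above had few or no counts. CXCR1 had 0 and 6 counts in EV and 0 in both WFI samples, CXCR2 had 1 and 0 in EV and 2 and 0 in WFI, CXCR3 had 6 and 1 in EV and 0 and 1 in WFI, and CCR2 and CCR6 had 0 in all 4 samples. Of 23 receptor genes 5 passed the filter. Among these, CXCR4 and ACKR3 passed only through their EV counts and CXCR6 only through its WFI counts. Genes like them could enter the test only with a change in the direction seen. CXCR4, the receptor of CXCL12, was higher, with 357 and 369 counts in EV and 7 and 9 in WFI (log2 fold change 5.63, SE 0.24, edgeR adjusted p = 4.28e-09). ACKR3, a scavenger receptor for CXCL12 and CXCL11, had 174 and 238 counts in EV and 0 and 2 in WFI, a ratio of 228 (95% interval 62.7 to 1889, counting error only). Its fitted log2 fold change was 6.71 without WFI replicate 1 and 10.72 without WFI replicate 2. CXCR6, the CXCL16 receptor, had 0 and 1 counts in EV and 22 and 25 in WFI, 42.5-fold lower (95% interval 7.26 to 1712, counting error only). Its fitted log2 fold change was -4.31 without EV replicate 1 and -7.51 without EV replicate 2. CXCL12 itself had 0 counts in all samples. CCR10 (log2 fold change 0.33, edgeR adjusted p = 0.41) and the atypical receptor CCRL2 (-1.19, edgeR adjusted p = 0.111) did not pass. The leukocyte marker sum given above was higher in EV too, and its part in the CXCR4 value was not tested, while PTPRC stayed near 0.

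Among the signals that induce chemokines, interleukin 1 transcripts were lower. Of 27 genes of interleukin 1, TNF and Toll-like receptor signalling 25 were tested, of which 18 were lower, 4 were higher and 3 missed the threshold; their median log2 fold change was -0.51, beside 0.02 for all tested genes. Over all tested genes, 31.5% were called lower and 34.5% higher, against which this count and those of the lists that follow are to be read. By adjusted p the leading genes were IL1B (-2.11), the inhibitory kinase IRAK3 (-2.43), IL1A (-1.13) and the kinase IRAK1, which was higher (0.89). IL1A, an alarm cytokine of epithelia, had a mean of 125 ± 2.69 CPM in EV and 273 ± 1.47 CPM in WFI (edgeR adjusted p = 1.16e-09). TNF, which lies in the MHC region of chromosome 6, where 2 of 153 protein coding genes had 10 or more counts in every sample, had 0 and 1 counts in EV and 0 in both WFI samples and has no usable measurement. Of further genes in this list, chosen after their values were seen, the sensors of microbial products TLR2, TLR3 and TLR4 had log2 fold changes of -2.48, -1.53 and -1.45, while the interleukin 1 receptor accessory chain IL1RAP had 2.31 and the kinase RIPK1 1.26.

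Of 16 genes of NF-kB subunits, kinases and inhibitors, all tested, 7 were lower, 6 were higher and 3 missed the threshold (median -0.03), numbers near the shares over all genes. The inhibitors TNIP1 (-0.96) and NFKBIA (-0.82) were lower, and the inhibitor TNFAIP3 (0.79) and the precursor subunit gene NFKB1 (1.09) were higher. RELA, the main activating subunit, had a mean of 163 ± 0.0516 CPM in EV and 177 ± 2.01 CPM in WFI (-0.12, edgeR adjusted p = 0.0268), and REL, chosen with it after the values were seen, had 4.10 ± 1.27 CPM in EV and 16.6 ± 0.495 CPM in WFI (-2.02, edgeR adjusted p = 5.22e-06). Of 22 genes of interferon and nucleic acid sensing, 20 were tested, 10 were lower, 2 higher and 8 did not pass (median -0.55). The number higher was 1 with DESeq2 and without EV replicate 1, WFI replicate 1 or WFI replicate 2, and 3 without EV replicate 2. The adaptor MAVS (-1.91), STAT2 (-1.48) and the kinase JAK1 (-0.66) were lower and IRF3 (1.04) was higher. IFNB1 had 0 counts in both EV samples and 0 and 2 in WFI.

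Of 15 genes of AU-rich mRNA turnover and the p38 pathway, all tested, 9 were lower, 5 higher and 1 did not pass (median -0.29). The number higher, near the share over all genes, was 2 without WFI replicate 1 or WFI replicate 2, and the number lower was 5 with the length and GC correction. The regnase gene ZC3H12C had 43.1 ± 3.34 CPM in EV and 142 ± 2.01 CPM in WFI (-1.72, edgeR adjusted p = 1.44e-09). The roquin genes RC3H1 (-0.85) and RC3H2 (-0.70), which destabilise cytokine mRNAs, were lower, and TIAL1 (0.83), an AU-rich element binding protein, was higher. ZFP36, which encodes tristetraprolin and was chosen after its values were seen, had 18.8 ± 1.62 CPM in EV and 14.4 ± 0.403 CPM in WFI (0.39, edgeR adjusted p = 0.0169).

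**Figure D5:**
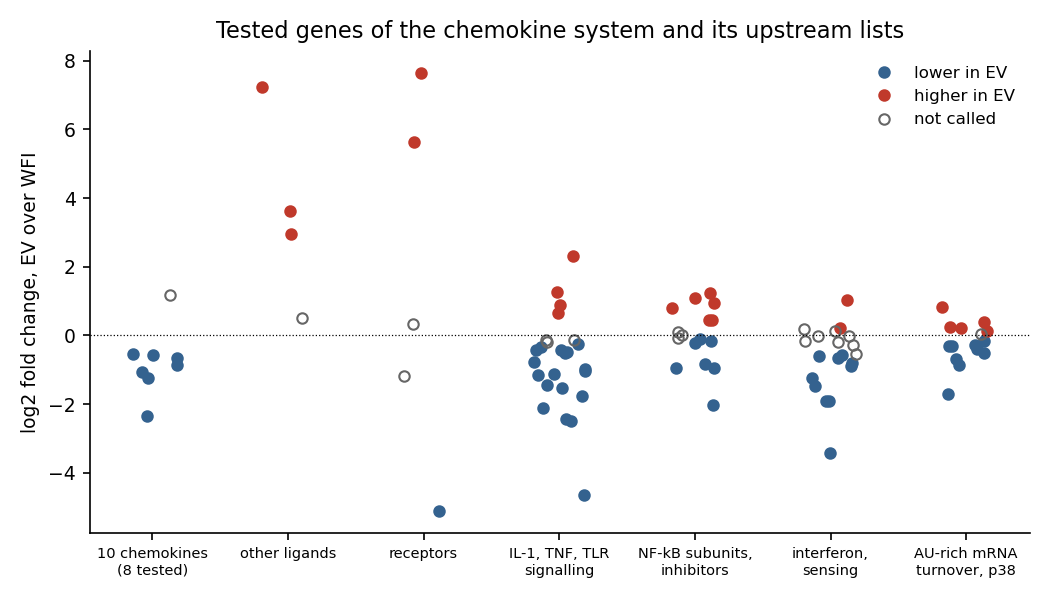
Log2 fold change, EV over WFI, of each tested gene of the 10 chemokines and of 6 further lists, filled where the adjusted p is below 0.05. The fitted values of genes at or near 0 counts in 1 group, such as CXCL14, ACKR3 and CXCR6, are no bounds. The signalling list of interleukin 1, TNF and Toll-like receptors lies mostly below 0, and the NF-kB list lies on both sides.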

How the data were processed

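RNA-seq libraries were made with a directional kit from total RNA, per the labels' protocols. The authors deposited 1 table of whole-number counts per Ensembl gene for 4 samples, not normalized. The build was hg38, per the submitters' processing notes. No aligner, counter, strand setting or annotation release was stated in the sources used here. Symbols matched 61757 of 61860 identifiers. Differential expression was tested in R 4.3.3 with edgeR 4.0.16 (TMM, filterByExpr, quasi-likelihood, group as the only term), EV over WFI, adjusted by Benjamini-Hochberg over 17465 genes. The SE is the log2 fold change divided by the square root of F. Depth was 19368791 to 20727175 counts per sample. Counts of same-group replicates scattered beyond sampling noise (chi-square divided by its degrees of freedom was 4.58 in EV and 2.2 in WFI), so none was merged. The labels state no pairing. The members and lists were chosen with earlier results of these data known. Named genes were all members, other tested chemokine ligands and receptors, and the 4 genes of each signalling list with the smallest adjusted p. Simulated counts with 200 changed genes gave 70% recovery of log2 changes of 0.5, 90% at 1 and 100% at 2 over 16078 genes, with 6.25% of calls false. The simulation left most genes unchanged and used a common dispersion for all, whereas 66% of tested genes were called here. Its rates may therefore not hold for this contrast. The alternatives comprised DESeq2 1.42.0, 2 other scalings (RLE, upper quartile), other filters, a replicate block, leaving out each sample, a fold minimum and a length and GC correction (mgcv).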

Additional observations from a re-analysis of the deposited data

How the results depend on the processing

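The number of chemokines lower in EV was 7 and the number higher 0 under every alternative but one. With a required absolute log2 fold change of at least 1, 3 were lower (CXCL6, CXCL8 and CCL20). CXCL1 (-0.56), CXCL2 (-0.86), CXCL3 (-0.53) and CXCL5 (-0.65) are below that size. CXCL10 was called under no alternative, with log2 fold changes of 0.82 to 1.53 and adjusted p of 0.0604 to 0.435, and did not pass the filter of 50 counts. Leaving out 1 sample moved the log2 fold change of CCL20 between -2.72 and -2.07 and that of CXCL8 between -1.30 and -1.24. With the replicate block, whose pairing the labels do not state (r of same-numbered deviations 0.0159 across genes), 7 were lower, CXCL8 was at -1.25, and 5573 of all genes were lower and 5957 higher; it changed no call of a chemokine. The length and GC correction moved CXCL1 to -0.87 and CXCL3 to -0.87, and the cause was not tested.

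With the fold minimum, 2322 of all genes were lower and 3063 higher, the interleukin 1, TNF and Toll-like list had 10 lower and 2 higher, the NF-kB list 1 and 2, the interferon list 5 and 1, and the AU-rich list 1 and 0. Without a count filter, 5 other ligands and 2 AU-rich genes were higher; with 50 counts in at least 2 samples, 0 other ligands were higher and 0 receptors lower, because fewer genes were tested. DESeq2 called 1 interferon gene higher. Leaving out 1 sample gave 1 to 3 interferon genes and 2 to 5 AU-rich genes higher. The correction left 5 AU-rich genes lower. CCR10, never called, ranged from -0.021 without WFI replicate 2 to 0.71 without WFI replicate 1 and reversed to -0.10 with the correction. Testing without a count filter moved the median log2 fold change of all genes to 0.24, from 0.02. At this depth a count of 0 allows a level of up to 0.143 to 0.165 CPM.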
